A study of Mus musculus with 19 samples.

Results

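The 6 genes *Impg2*, *Cdkl3*, *Zc3h6*, *Irak1*, *Muc1* and *Ppp4r1l-ps* belong to the 51912 genes counted in E13.5 mouse neocortex and were chosen by their higher counts than control in embryos lacking *Ino80* and in embryos lacking *Ino80* and *Trp53*, or in the latter alone. The choice used the contrasts of these same embryos, so the genotype differences below are a description of the genes chosen and carry no test. All 6 were matched by Ensembl identifier and all 6 passed the filter on low counts in all 3 comparisons. RNA of 7 ctrl, 5 cKO-E and 7 dKO-E embryos was sequenced as 1 library per embryo. The cKO-E embryos carried the Emx1-Cre driver and 2 floxed *Ino80* alleles, and the dKO-E embryos carried floxed *Trp53* alleles in addition. All groups shared a mixed C57BL/6 and 129 strain background and the stage of E13.5, and the labels say nothing of the Cre or the floxed alleles of the embryos labelled control. *Emx1*-Cre acts in cortical neural progenitors and their progeny, so that interneurons, microglia and vessels in the same tissue keep both genes. The dKO-E embryos came from litters 1 and 2 and the cKO-E embryos from litters 3 to 7, so a difference between the mutants cannot be told apart from a difference between litters. Sex was also uneven, with 4 females and 3 males in ctrl, 4 and 1 in cKO-E, and 2 and 5 in dKO-E.

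INO80 is the ATPase of a chromatin remodelling complex that slides nucleosomes and exchanges histone variants at promoters, and that also acts in the repair of broken DNA. The transcription factor p53, encoded by *Trp53*, switches on genes of cell cycle arrest and apoptosis when DNA is damaged. Deletion of *Trp53* together with *Ino80* therefore asks which expression changes remain when the p53 response is removed. The 6 genes belong to no common pathway. *Impg2* encodes a proteoglycan of the matrix around retinal photoreceptors, *Cdkl3* a cyclin-dependent-kinase-like protein kinase, and *Zc3h6* a protein with zinc fingers of the CCCH type. *Irak1* encodes a kinase that relays signals from interleukin-1 and Toll-like receptors, *Muc1* is a transmembrane mucin of epithelial surfaces, and *Ppp4r1l-ps* is a transcribed pseudogene related to *Ppp4r1*, a regulatory subunit gene of protein phosphatase 4.

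Promoter sequences are shown because INO80 acts at promoters. RefSeq held a window of 300 bases around the start for 4 of the 6 genes on GRCm38.p6, and none for *Cdkl3* and *Ppp4r1l-ps*. They lie at chr16:56204063-56204362 (plus strand) for *Impg2*, chr2:128967152-128967451 (plus) for *Zc3h6*, chrX:74023872-74024171 (minus) for *Irak1* and chr3:89228806-89229105 (plus) for *Muc1*. Each is written 5′ to 3′ along its gene, and capitals mark matches on either strand to CCATNTT, the core of the YY1 motif, to TATAAA, the TATA box, and to GGGCGG, the GC box.
Impg2: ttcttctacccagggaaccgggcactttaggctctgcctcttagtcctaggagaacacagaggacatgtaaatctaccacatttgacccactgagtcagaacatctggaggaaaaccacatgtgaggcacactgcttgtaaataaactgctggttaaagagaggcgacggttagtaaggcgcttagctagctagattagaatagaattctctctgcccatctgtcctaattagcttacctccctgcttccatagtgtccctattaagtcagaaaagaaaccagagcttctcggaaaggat
Zc3h6: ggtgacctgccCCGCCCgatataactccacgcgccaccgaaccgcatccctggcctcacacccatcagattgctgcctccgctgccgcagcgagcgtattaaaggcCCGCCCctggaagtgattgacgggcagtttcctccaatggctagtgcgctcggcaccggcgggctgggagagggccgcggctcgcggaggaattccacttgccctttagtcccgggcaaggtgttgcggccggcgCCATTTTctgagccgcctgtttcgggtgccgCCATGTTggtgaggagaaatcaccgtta
Irak1: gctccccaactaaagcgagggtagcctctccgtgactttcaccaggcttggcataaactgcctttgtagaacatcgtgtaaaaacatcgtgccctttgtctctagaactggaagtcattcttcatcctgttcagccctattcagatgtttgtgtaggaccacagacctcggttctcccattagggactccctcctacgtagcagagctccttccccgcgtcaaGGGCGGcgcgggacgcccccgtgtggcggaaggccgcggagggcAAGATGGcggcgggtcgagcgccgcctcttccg
Muc1: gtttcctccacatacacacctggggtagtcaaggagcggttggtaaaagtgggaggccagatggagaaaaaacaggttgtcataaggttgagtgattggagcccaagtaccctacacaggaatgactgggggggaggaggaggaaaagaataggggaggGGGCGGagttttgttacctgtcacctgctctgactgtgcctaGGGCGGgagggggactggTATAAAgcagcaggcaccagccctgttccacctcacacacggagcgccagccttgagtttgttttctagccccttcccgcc
The *Impg2* window held none of the 3 motifs and was the poorest in G and C (45.7%). The *Zc3h6* window held CCATNTT at 2 places and CCGCCC, which is GGGCGG read on the other strand, at 2 places. It was the richest in G and C (64%), with 28 CpG dinucleotides. *Irak1* had 1 CCATNTT match, read on the other strand as AAGATGG, 1 GC box and 22 CpG. RefSeq lists a second *Irak1* window, chrX:74023869-74024168, which is not printed and holds 1 further GC box at its end. *Muc1* alone among them held a TATA box, with 2 GC boxes and 6 CpG. Of all 32851 windows of this length, 16.1% held CCATNTT, 13.6% TATAAA and 35.7% GGGCGG, and the median window had 52.7% G and C and 7 CpG.

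Depth and the genotype labels were examined first. Total counts on genes lay between 820915 and 8095810 per library, with medians of 3152460 in ctrl, 2952788 in cKO-E and 2598028 in dKO-E. Values are given as CPM, counts scaled to a common library size with edgeR's TMM factors, and 3 counts, taken as the smallest number that could be told from 0, were worth 0.37 to 3.73 CPM. The lowest count behind any member value was 14, for *Irak1* in cKO-E D. *Ino80* itself had 110 to 134 CPM in ctrl, 147 to 182 in cKO-E and 161 to 201 in dKO-E, and *Trp53* had 36.9 to 50.1, 34.2 to 44.2 and 27 to 42.7 CPM. These are sums over the whole gene, so they do not show whether the floxed exons were lost. The study itself reports that reads of the floxed *Ino80* exons were lost in cKO-E. In the cortical markers, summed levels of 10 progenitor genes were 1310 to 1480 CPM in ctrl, 1030 to 1370 in cKO-E and 1180 to 1420 in dKO-E, and those of 8 neuronal genes 1880 to 2990, 2110 to 2800 and 1620 to 2350. *Sox2* and *Tubb3*, members of these lists, are listed at 0 in all 19 libraries. Both are used throughout this tissue, so these entries are not read as absence, and why they are 0 was not tested. In bulk tissue fewer cells of a type and less RNA per cell cannot be told apart.

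Per kilobase of exon, *Muc1* had the highest level of the 6 in ctrl, at 7.29 ± 0.848 CPM per kb (SD, n = 7). *Cdkl3* followed at 6.45 ± 0.625 and *Zc3h6* at 6.18 ± 1.51, and these 3 did not differ beyond their spread. *Irak1* stood at 4.35 ± 0.547 and *Ppp4r1l-ps* at 3.7 ± 0.197 CPM per kb, and *Impg2* was lowest at 1.26 ± 0.185. In dKO-E, *Muc1* (13.7 ± 2.3), *Zc3h6* (12 ± 2.47) and *Cdkl3* (10.2 ± 2.39; SD, n = 7) were again within each other's spread.

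At the false discovery rate of 0.001 that the study used, edgeR's quasi-likelihood test called 2 of the 6 genes higher in cKO-E, *Impg2* and *Cdkl3*, where 1.06% of all 11660 genes tested were called higher. It called 5 of the 6 higher in dKO-E, all but *Cdkl3*, where 0.246% of 11381 genes were. The study used edgeR's likelihood-ratio test instead, and lists all 6 as higher in dKO-E at this rate, *Cdkl3* included. At a rate of 0.05 the quasi-likelihood test called 4 of the 6 in cKO-E, beside 7.31% of all genes. In dKO-E it called 6 of the 6, beside 5.45%. These counts restate the choice of the genes. In cKO-E, *Impg2* lay just inside the threshold (adjusted p = 0.000832) and *Zc3h6* just outside it (adjusted p = 0.00241). In dKO-E, *Zc3h6* lay inside (adjusted p = 0.000447) and *Cdkl3* outside (adjusted p = 0.00132). Genotypes did not overlap for 3 of the 6 genes in cKO-E, against 3.21% of all genes, and for 5 of the 6 in dKO-E, against 1.21%. *Ino80* and *Impg2* were the only genes called higher in both mutants at 0.001 by the quasi-likelihood test. *Impg2*, *Cdkl3* and *Zc3h6* were about as high in both mutants, *Irak1* and *Muc1* were higher in dKO-E, and *Ppp4r1l-ps* lay in between.

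**Figure D1:**
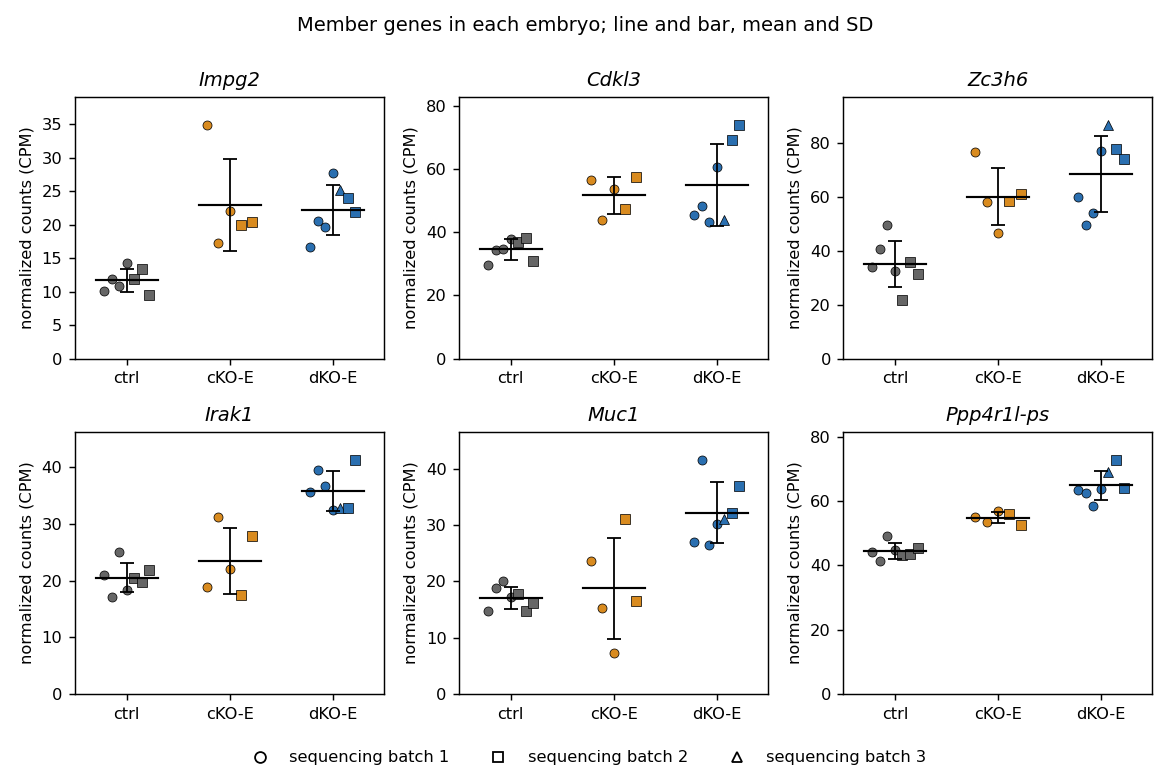
Normalized counts (CPM, vertical axis from 0) of the 6 genes in each embryo, by genotype on the horizontal axis. Each point is 1 embryo, its shape gives the sequencing batch, and lines and bars give the mean and SD (n = 7, 5 and 7). *Impg2*, *Cdkl3* and *Ppp4r1l-ps* have every cKO-E embryo above every ctrl embryo, whereas *Muc1* in cKO-E ranges from 7.34 to 31.1 CPM around the ctrl values.

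*Impg2* lies on chromosome 16 of GRCm38 from 56204313 to 56273756 (ENSMUSG00000035270.15). Its level in ctrl was 9.52 to 14.3 CPM with a median of 11.8. The cKO-E embryos A to E had 34.9, 17.3, 22, 19.9 and 20.4 CPM. The dKO-E embryos had 16.6 to 27.7 CPM with a median of 21.8. Every mutant embryo was above every ctrl embryo, and cKO-E A stood well above the others. The log2 fold change reached 0.99 (SE 0.17) in cKO-E and 0.91 (SE 0.13) in dKO-E, or folds of 1.98 and 1.87. Without cKO-E A the first was 0.75. The direct difference of dKO-E from cKO-E was -0.07 on the log2 scale, with a 95% confidence interval from -0.42 to 0.28.

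Genes of the photoreceptor and its matrix gave a check on *Impg2* that the choice had not used. Of 15 such genes in the files none reached the count needed for testing against ctrl, and their summed level was 2.6 to 7.28 CPM in ctrl, 5.43 to 8.3 in cKO-E and 2.23 to 13.1 in dKO-E. *Impg1*, which encodes the companion proteoglycan of the same matrix, had 0.189 ± 0.27 CPM in ctrl, 0.0567 ± 0.127 in cKO-E and 0.168 ± 0.354 in dKO-E (SD, n = 7, 5 and 7), below the level of 3 counts. The photoreceptor gene *Rbp3* was at 0 throughout, which, as for *Sox2* and *Tubb3*, does not by itself show absence. *Impg2*, at a median of 11.8 CPM in ctrl, was thus above the summed level of the whole list in ctrl.

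*Cdkl3* lies on chromosome 11 from 52004221 to 52089784 (ENSMUSG00000020389.19), 17.5 Mb from *Trp53*. Its ctrl levels were 29.6 to 38.2 CPM with a median of 34.8. The cKO-E embryos A to E had 56.4, 43.9, 53.6, 47.2 and 57.4 CPM. In dKO-E it ran from 43.3 to 74 CPM with a median of 48.3. All mutants exceeded all ctrl embryos, and dKO-E D, F and G, with 60.6, 69.1 and 74 CPM, stood apart from the other 4, which lay between 43.3 and 48.3. Against ctrl the log2 fold change was 0.60 (SE 0.09) for cKO-E and 0.63 (SE 0.12) for dKO-E, and the mutants differed by 0.04 (95% confidence interval -0.23 to 0.32).

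Of 8 related kinases of the CDKL and RCK families, 3 were abundant enough to test, and 0 passed a false discovery rate of 0.05 in edgeR's quasi-likelihood test in either mutant, where 17.2% of all genes did in cKO-E and 15.5% in dKO-E. With 3 genes this count says little about the family. *Ick*, a kinase of the primary cilium, had log2 fold changes of 0.16 (SE 0.07) in cKO-E and 0.16 (SE 0.06) in dKO-E.

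*Zc3h6* lies on chromosome 2 from 128967402 to 129018563 (ENSMUSG00000042851.17), 9.49 Mb from *Ino80*. Of its exon bases 9.97% are shared with *Gm10762* on the opposite strand and *Gm14027* on the same strand, and counts there may be split. Its levels in ctrl were 21.7 to 49.3 CPM with a median of 34, the widest relative spread of the 6 genes in ctrl (24.4% of the mean). The cKO-E embryos A to E had 76.4, 57.8, 46.6, 58.4 and 60.8 CPM. The dKO-E embryos had 49.3 to 86.6 CPM with a median of 74. In all, 4 of 5 cKO-E embryos and 6 of 7 dKO-E embryos were above the highest ctrl embryo, ctrl C. On the log2 scale cKO-E differed from ctrl by 0.74 (SE 0.15) and dKO-E by 0.87 (SE 0.15), and the mutants differed by 0.13 (95% confidence interval -0.16 to 0.43). *Gm10762*, the overlapping gene, had log2 fold changes of -0.15 (SE 0.24) and 0.01 (SE 0.2).

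Other CCCH zinc finger genes gave few calls, with *Wdr82*, not itself a zinc finger gene, counted among those listed. Of 21 listed, 15 were tested, and at a false discovery rate of 0.05 in edgeR's quasi-likelihood test 0 rose and 2 fell in cKO-E, while 1 rose and 0 fell in dKO-E, beside 17.2% and 15.5% of all genes called. *Zc3h12c*, of the family of ribonucleases that degrade cytokine transcripts, fell by 0.31 (SE 0.06), and *Zfp36l1*, which binds AU-rich elements, fell by 0.46 (SE 0.14) in cKO-E. *Zc3h8*, which lies 23.3 kb from *Zc3h6*, rose by 0.52 (SE 0.14) in dKO-E and stood at 0.43 (SE 0.18, not called) in cKO-E. *Zc3h13* and *Zc3h7b*, the most abundant of the members not called, differed from ctrl by -0.11 (SE 0.06) and 0.03 (SE 0.06) in cKO-E.

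*Irak1* lies on chromosome X from 74013914 to 74023918 on the minus strand (ENSMUSG00000031392.18). Its ctrl levels were 17.1 to 25.1 CPM with a median of 20.4. The cKO-E embryos A to E had 18.9, 31.2, 22, 17.4 and 27.9 CPM, 2 of them above the highest ctrl embryo. In dKO-E it lay between 32.4 and 41.3 CPM with a median of 35.6, above every ctrl and every cKO-E embryo. The log2 fold change was 0.26 (SE 0.14) in cKO-E, where the gene was not called, and 0.80 (SE 0.10) in dKO-E. The direct difference between the mutants was 0.55 (95% confidence interval 0.28 to 0.82), and *Irak1* entered the choice by its dKO-E values alone.

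Among 31 genes of interleukin-1 and Toll-like receptor signalling, 19 were tested in cKO-E and 18 in dKO-E. At a false discovery rate of 0.05, 1 rose and 1 fell in each mutant by edgeR's quasi-likelihood test, beside 17.2% and 15.5% of all genes called in either direction. *Peli2*, encoding a Pellino ubiquitin ligase that acts on IRAK1, fell in both: it had 195 ± 11.5 CPM in ctrl, 104 ± 15.1 in cKO-E and 143 ± 11.9 in dKO-E (SD, n = 7, 5 and 7). Its log2 fold changes were -0.90 (SE 0.08, adjusted p = 1.64e-06 from edgeR) and -0.45 (SE 0.06, adjusted p = 4.39e-05 from edgeR), and the mutants differed by 0.47 (SE 0.09, adjusted p = 0.0012 from edgeR). *Chuk*, which encodes the kinase IKK-alpha, rose by 0.23 (SE 0.07) in cKO-E, and *Tab3*, an adaptor of the kinase TAK1, by 0.24 (SE 0.07) in dKO-E. *Peli1* and *Map3k7*, more abundant members, were at -0.03 (SE 0.06) and 0.03 (SE 0.06) in cKO-E and were not called. *Myd88*, the adaptor upstream of IRAK1, is listed at 0 in all 19 libraries, which like the entries of *Sox2* and *Tubb3* is not read as absence, and *Irak4* had 2.15 ± 1.36 CPM in ctrl, 2.54 ± 1.09 in cKO-E and 1.92 ± 1.01 in dKO-E (SD, n = 7, 5 and 7), under the count needed for testing. With litter as a block, 0 genes of all 6 pathway lists were called at 0.001 in dKO-E, in place of 2, *Peli2* and *Ppp4r3b*. The share of all genes called in that fit was not counted.

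Microglia use this receptor pathway, and their markers were summed beside *Irak1*. The 13 microglial genes summed to 17.7 to 34.1 CPM in ctrl, 43.3 to 65.2 in cKO-E and 13.8 to 25.8 in dKO-E. At a false discovery rate of 0.05, 4 of 4 tested in cKO-E rose, beside 7.31% of all genes, and 0 of 2 in dKO-E, beside 5.45%. Those 4 included *Csf1r* (log2 fold change 2.14, SE 0.33) and *Mpeg1* (2.5, SE 0.33). Both were under the count needed for testing in dKO-E against ctrl. They passed the filter only through their cKO-E counts, so these numbers of genes carry no test. *P2ry12*, also on the list and not tested, had 1.86 ± 1.5 CPM in ctrl, 1.29 ± 0.277 in cKO-E and 0.725 ± 0.561 in dKO-E (SD, n = 7, 5 and 7). The part of microglia in the values of *Irak1* was not tested. Summed markers of ganglionic eminence and interneurons were 9.67 to 84.3 CPM in ctrl, 65.2 to 120 in cKO-E and 29.2 to 70.2 in dKO-E. The p53 target genes, a list that includes genes the study itself named from these embryos, summed to 417 to 462 CPM in ctrl, 806 to 940 in cKO-E and 387 to 461 in dKO-E.

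*Muc1* lies on chromosome 3 from 89229057 to 89233381 (ENSMUSG00000042784.9). Its ctrl levels were 14.7 to 20 CPM with a median of 17.3. The cKO-E embryos A to E had 23.6, 15.3, 7.34, 31.1 and 16.6 CPM, on both sides of the ctrl range. The dKO-E embryos had 26.5 to 41.6 CPM with a median of 31.1, all above ctrl, and 4 of 7 were above the highest cKO-E embryo. Against ctrl the log2 fold change was 0.00 (SE 0.23) for cKO-E and 0.88 (SE 0.12) in dKO-E. The mutants differed by 0.89 (95% confidence interval 0.45 to 1.34). Without cKO-E C, the lowest embryo, the cKO-E fold change was 0.21, and without cKO-E A it was -0.17. *Muc1*, like *Irak1*, was called in dKO-E and not in cKO-E, at a rate of 0.001 and also at 0.05. A gene gained regardless of p53 would need a call in both mutants, which neither of them met. Among the chosen genes *Impg2* alone met it at 0.001 by the quasi-likelihood test. *Cdkl3*, *Zc3h6* and *Ppp4r1l-ps* met it at 0.05 and not at 0.001. A missing call does not show that the level was that of ctrl.

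Epithelial markers were close to 0 beside *Muc1*. The 11 genes of the list, *Epcam* and *Cdh1* among them, summed to at most 1.68 CPM in ctrl, 1.1 in cKO-E and 1.62 in dKO-E, and *Krt14*, *Krt19* and *Cldn4* had 0 counts in every library. As for *Sox2* and *Tubb3*, an entry of 0 does not by itself show absence. The dKO-E embryo highest for *Muc1* was B, with 41.6 CPM. It was also the highest of its genotype for the epithelial, microglial, endothelial, erythroid and cortical progenitor sums. In dKO-E the sums of choroid plexus, of ganglionic eminence and interneurons, and of cortical neurons were highest in G, A and C. Endothelial markers summed to 42.5 to 80.9 CPM in ctrl, 51.6 to 71.4 in cKO-E and 41.3 to 93.9 in dKO-E, erythroid ones to 47.2 to 129, 58.8 to 88 and 34.3 to 118, and those of choroid plexus to at most 2.18. Their part in the values of *Muc1* was not tested. A list of 21 genes held mucins and genes of mucin-type O-glycosylation, and also *Egfr*, *Erbb2*, *Adam17* and *Lgals3*, which are neither. Of the 21, 10 were tested. At a false discovery rate of 0.05 in edgeR's quasi-likelihood test 1 fell in cKO-E, where 9.88% of all genes did. In dKO-E 0 were called, where 15.5% of all genes were. That 1, named under the rule and no more than the share over all genes, was *Erbb2*, a receptor tyrosine kinase that associates with MUC1, at 15.4 ± 2.9 CPM in ctrl and 9.74 ± 2.2 in cKO-E (SD, n = 7 and 5), a fall of 0.62 on the log2 scale (SE 0.18, adjusted p = 0.0231 from edgeR). Over all 6 pathway lists the 54 genes tested in cKO-E had a median log2 difference from ctrl of -0.03 and the 53 tested in dKO-E one of -0.01, beside 0.02 and 0.01 over all genes tested. *Galnt1* and *Galnt7*, which start O-glycan chains, were at -0.07 (SE 0.07) and -0.13 (SE 0.12) in cKO-E and were not called.

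*Ppp4r1l-ps* lies on chromosome 2 from 173579320 to 173659640 on the minus strand (ENSMUSG00000055897.13), 54.1 Mb from *Ino80*. Its levels in ctrl were 41.3 to 49.1 CPM with a median of 44.1. The cKO-E embryos A to E had 55.1, 53.5, 56.9, 55.9 and 52.7 CPM. The dKO-E embryos had 58.5 to 72.8 CPM with a median of 63.7. The 3 genotypes did not overlap, in the order ctrl, cKO-E and dKO-E. Against ctrl the log2 fold change was 0.30 (SE 0.07) for cKO-E and 0.52 (SE 0.07) for dKO-E, the smallest of the 6 genes in dKO-E, with the smallest spread within genotypes (3.14% to 7.12% of the mean). The mutants differed by 0.23 (95% confidence interval 0.08 to 0.39). Reads of a pseudogene can be shared with its relatives, and whether they were here was not measured, so its counts are uncertain in that respect.

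Some subunits of protein phosphatase 4 were lower in the mutants. Of 7 genes of the list found in the files, all 7 were tested, 2 fell in cKO-E and 1 in dKO-E at a false discovery rate of 0.001, where 2.32% and 2.34% of all genes fell, and 0 rose at 0.05 in either mutant by edgeR's quasi-likelihood test. At 0.05, 3 fell in cKO-E and 2 in dKO-E, and over all genes tested 9.88% and 10% fell at that rate. *Ppp4r3b*, a regulatory subunit, had 156 ± 6.14 CPM in ctrl, 107 ± 10.3 in cKO-E and 107 ± 10.7 in dKO-E (SD, n = 7, 5 and 7). Its log2 fold changes were -0.55 (SE 0.06, adjusted p = 2.24e-05 from edgeR) and -0.54 (SE 0.06, adjusted p = 9.3e-06 from edgeR). *Ppp4r3a*, its paralog, fell by 0.36 (SE 0.06) and 0.26 (SE 0.06). *Ppp4r1*, the relative of the pseudogene, fell by 0.18 (SE 0.05) in cKO-E and was not called in dKO-E, while the catalytic subunit gene *Ppp4c* was at 0.10 (SE 0.11) and 0.22 (SE 0.09) and *Ppp4r2* at -0.02 (SE 0.06) and -0.07 (SE 0.06), without a call. The 7 had medians of -0.09 and -0.07 in the mutants, and 2 of the 7 lay above 0 in each.

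**Figure D2:**
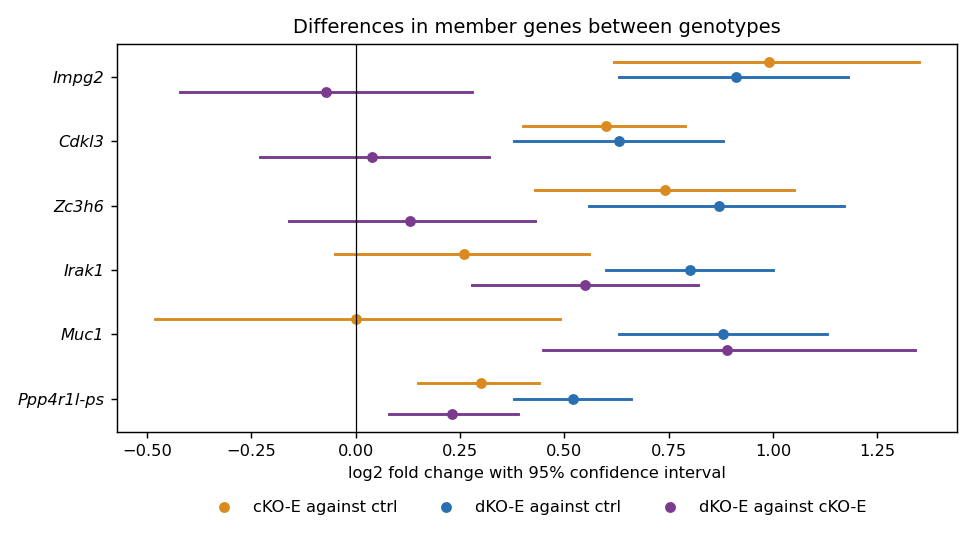
Log2 fold changes of the 6 genes (horizontal axis) for cKO-E against ctrl, dKO-E against ctrl and dKO-E against cKO-E, with points for estimates and lines for 95% confidence intervals. The third comparison lies around 0 for *Impg2*, *Cdkl3* and *Zc3h6*, and its intervals lie above 0 for *Irak1*, *Muc1* and *Ppp4r1l-ps*.

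Between the mutants, 3 of the 6 genes, *Irak1*, *Muc1* and *Ppp4r1l-ps*, were higher in dKO-E at a false discovery rate of 0.05, where 5.59% of 11746 genes were. The other 3 were not called, and their intervals still allow differences in either direction of up to 0.43 on the log2 scale. *Irak1* and *Ppp4r1l-ps* did not overlap between the mutants, against 2.43% of all genes that were higher in dKO-E without overlap. All of these values rest on embryos that entered the choice and on litters that the mutants did not share.

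Litter 1 held both ctrl and dKO-E embryos, and litters 4, 5 and 7 both ctrl and cKO-E embryos, so the genes were also read among littermates. These embryos entered the choice of the genes, and the share of all genes apart in the same way was not counted. The values are thus a description and carry no test. In litter 1 the 3 dKO-E embryos were above the 2 ctrl embryos for all 6 genes. *Irak1* had 35.6 to 39.5 CPM against 17.1 and 21 there, and *Zc3h6* had 49.3 to 59.8 against 34 and 40.7. In litters 4, 5 and 7 the cKO-E embryo was above its ctrl littermates for *Impg2*, *Cdkl3*, *Zc3h6*, *Irak1* and *Ppp4r1l-ps*. *Irak1* in these litters had 31.2 against 25.1 CPM, 22 against 18.3 and 20.4, and 27.9 against 19.8 and 21.8. *Muc1* in cKO-E was below its littermates in litters 4 and 5, with 15.3 against 20 CPM and 7.34 against 17.3 and 17.8, and above them in litter 7, with 16.6 against 14.7 and 16.2.

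**Figure D3:**
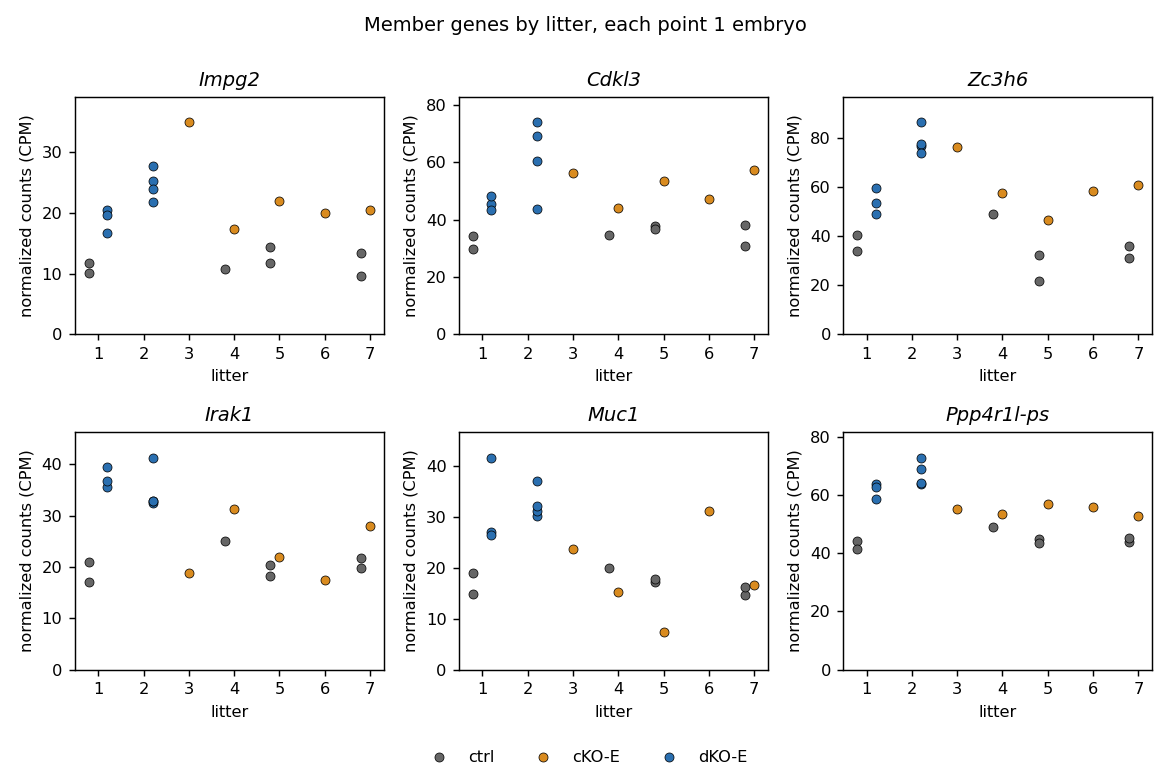
Normalized counts (CPM, vertical axis from 0) of the 6 genes in each embryo against its litter, coloured by genotype. In litter 1 the 3 dKO-E points lie above the 2 ctrl points in every panel, for genes chosen by the values of these same embryos. For *Zc3h6* the 4 dKO-E embryos of litter 2 (74 to 86.6 CPM) lie above the 3 of litter 1 (49.3 to 59.8 CPM).

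The dKO-E litters differed from each other for some genes. *Zc3h6* had 54.3 ± 5.26 CPM in litter 1 (SD, n = 3) and 78.8 ± 5.45 in litter 2 (SD, n = 4), without overlap. *Impg2* had 18.9 ± 2.04 and 24.6 ± 2.49, also without overlap, and *Ppp4r1l-ps* 61.6 ± 2.69 and 67.4 ± 4.3 CPM. *Irak1*, at 37.3 ± 2.03 and 34.8 ± 4.32, and *Muc1*, at 31.7 ± 8.54 and 32.6 ± 3.03, overlapped. Litter 2 held males only and litter 1 held 1 male dKO-E embryo, C, which had 53.8 CPM of *Zc3h6* and 19.6 of *Impg2*, both below every embryo of litter 2. Sequencing batch 1 held litter 1 whole and 1 dKO-E embryo of litter 2, so litter and batch can be told apart only in part. With litter as a block, 0 of the 6 genes were called at 0.001 in either mutant by edgeR's quasi-likelihood test, while 5 in cKO-E and 6 in dKO-E were higher at an unadjusted p under 0.05. The log2 fold change of *Zc3h6* in dKO-E was then 0.51 (SE 0.14), and that of *Muc1* in cKO-E was -0.44 (SE 0.21). Only litters with both genotypes inform that fit, 5 embryos of litter 1 in the case of dKO-E. In sequencing batch 1 alone 0 of the 6 genes were called in either mutant, 4 and 6 passed an unadjusted p under 0.05, and the log2 fold changes in dKO-E were 0.46 to 0.86. In batch 2 alone 0 were called, 3 and 6 passed an unadjusted p under 0.05, and *Zc3h6* and *Cdkl3* in dKO-E stood at 1.33 (SE 0.18) and 1 (SE 0.15). Batch 3 held 1 dKO-E embryo and gives no such value. For the fits with litter as a block and within batches, the share of all genes called, or under that unadjusted p, was not counted. The numbers of the 6 genes in these fits therefore do not set them apart from other genes. They also rest on embryos that entered the choice and carry no test.

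Sex and batch were tested among ctrl embryos, which the choice had used as the reference and not split. Between 4 female and 3 male ctrl embryos, 0 of the 6 genes were called at a false discovery rate of 0.05 or reached an unadjusted p under 0.05 in edgeR's quasi-likelihood test, where 0.0426% of 11736 genes were called. X-linked *Irak1* had 21.6 ± 2.4 CPM in females (SD, n = 4) and 19.1 ± 2.45 in males (SD, n = 3; exact permutation test, two-sided, p = 0.229, where 0.0571 is the smallest possible). Between 4 ctrl embryos of batch 1 and 3 of batch 2, 0 of the 6 were called, against 7.36% of all genes, and 0 reached an unadjusted p under 0.05. *Zc3h6* differed most, with 39.1 ± 7.73 CPM (SD, n = 4) and 29.6 ± 7.25 (SD, n = 3; exact permutation test, two-sided, p = 0.229). The other 5 had log2 differences between -0.06 and 0.14 between the batches.

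Whether embryos high for 1 of the genes were high for the others was tested within genotypes, a measure the choice had not used. Log2 CPM minus the genotype mean were correlated over 19 embryos for 15 pairs, and 0 pairs passed a false discovery rate of 0.05 in a permutation test within genotypes, with 2 at an unadjusted p under 0.05. *Impg2* and *Cdkl3* had the highest correlation, with Pearson's r = 0.506 (permutation p = 0.0281, adjusted p = 0.317) and Spearman's rho = 0.593 (permutation p = 0.0127, adjusted p = 0.135). Without the 2 embryos farthest from the median of *Impg2* r was 0.482. With the means of genotype and batch removed, r was 0.797 (permutation within genotype and batch, p = 0.00106, adjusted p = 0.0159), rho was 0.767, and r without the 2 farthest embryos was 0.791. Litter means were not removed and littermates were permuted as if independent, so the part of litter in this r was not tested. *Impg2* and *Irak1* had the lowest, r = -0.545 (permutation p = 0.0423, adjusted p = 0.317) and rho = -0.561 (permutation p = 0.018, adjusted p = 0.135), and r = -0.534 without the 2 farthest embryos. The other 13 pairs lay between -0.23 and 0.447.

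Genes within 200 kb of the 6 showed whether their surroundings moved with them. Of 113 annotated neighbours 42 were tested. At a false discovery rate of 0.001, 0 were called in either mutant by edgeR's quasi-likelihood test and 1 in each by DESeq2. By the quasi-likelihood test 10 in cKO-E and 9 in dKO-E had an unadjusted p under 0.05, for which the share of all genes was not counted. At a false discovery rate of 0.05, 1 rose and 3 fell in cKO-E, and 5 rose and 1 fell in dKO-E, where 17.2% and 15.5% of all genes were called. The neighbours had a median log2 difference of 0.04 for cKO-E and 0.05 for dKO-E.

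Of the nearest neighbours described here, *Zc3h8* alone was called, in dKO-E. *Rab22a*, 0.12 kb from *Ppp4r1l-ps*, had log2 fold changes of -0.14 (SE 0.08) in cKO-E and -0.07 (SE 0.09) in dKO-E, and *Trim46*, 0.796 kb from *Muc1*, had 0.34 (SE 0.14) and -0.12 (SE 0.11). *Senp7*, 14.3 kb from *Impg2*, had 0.11 (SE 0.06) and 0.07 (SE 0.06), and *Ppp2ca*, 8.9 kb from *Cdkl3*, -0.13 (SE 0.05) and -0.01 (SE 0.05). *Vapb*, which encodes an endoplasmic reticulum membrane protein 77.9 kb from *Ppp4r1l-ps*, was the neighbour that rose in both, by 0.29 (SE 0.07) and 0.18 (SE 0.05). *Pcnp*, 175 kb from *Impg2*, fell in both, by 0.35 (SE 0.09) and 0.31 (SE 0.07). In cKO-E *Hcfc1* near *Irak1* (-0.30, SE 0.07) and *Ash1l* near *Muc1* (-0.21, SE 0.05) also fell. In dKO-E *Flna* near *Irak1* (0.29, SE 0.06), *Scamp3* near *Muc1* (0.35, SE 0.12) and *Zbtb11* near *Impg2* (0.22, SE 0.07) rose, in addition to *Zc3h8*.

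**Figure D4:**
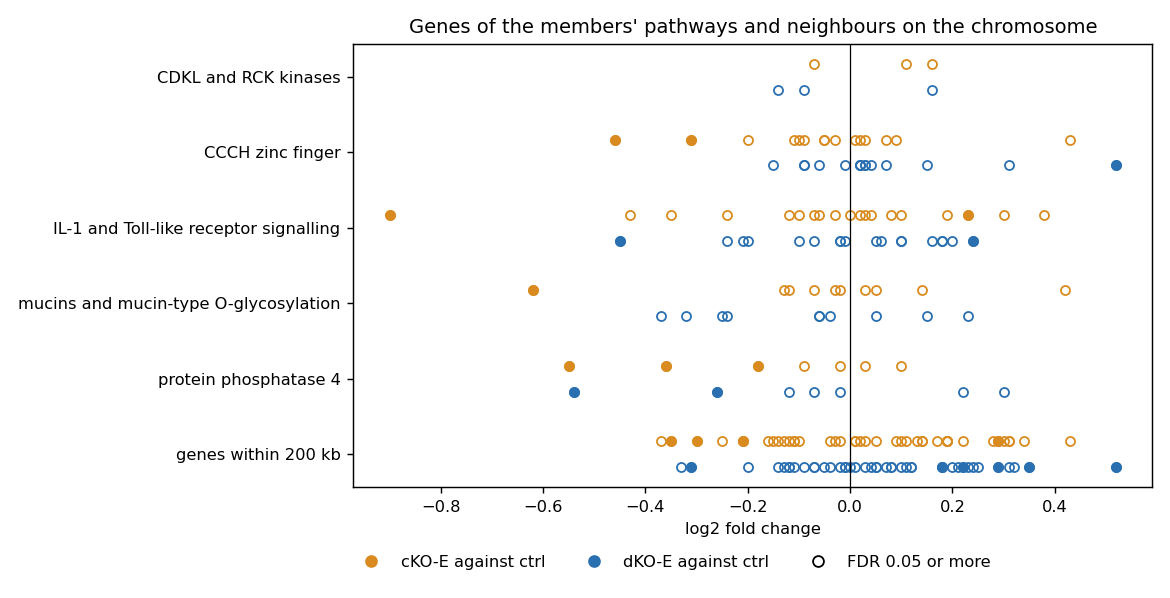
Log2 fold changes (horizontal axis) of the tested genes of 5 pathway lists and of the genes within 200 kb, in cKO-E (orange) and dKO-E (blue) against ctrl. Filled points passed a false discovery rate of 0.05, and open points did not. *Peli2* at -0.90 and -0.45 and *Ppp4r3b* at -0.55 and -0.54 are the farthest filled points to the left in their lists in both mutants.

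Genes most like each of the 6 were looked up among 11305 others by Pearson's r of log2 CPM over the 19 libraries. The points share the 3 genotypes, litters and batches, so r mainly orders genes by how they followed these. The nearest to *Impg2* were *Wdr70* (r = 0.897), *Spink10* (0.883) and *Fbxl20* (0.871), and to *Cdkl3* they were *Phtf1* (0.905), *Ndufaf2* (0.848) and *Gtf2h2* (0.847). *Zc3h6* was followed most closely by *Plekhm3* (0.906), *Ralgapb* (0.891) and *Nme7* (0.885). For *Irak1* they were *Uspl1* (0.897), *Adamts10* (0.837) and *Brd1* (0.834), for *Muc1* *Rasl12* (0.847), *Ncapd3* (0.817) and *Elf1* (0.812), and for *Ppp4r1l-ps* *Spopl* (0.937), *Ogdh* (0.931) and *Cspp1* (0.92).

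These followers were picked by r across the 3 genotypes, so their levels repeat the patterns of the 6 genes and carry no test. *Plekhm3* had 42.3 ± 3.6 CPM in ctrl, 56.1 ± 8.16 in cKO-E and 56.2 ± 6.7 in dKO-E (SD, n = 7, 5 and 7), as high in 1 mutant as in the other. *Uspl1* had 68.8 ± 3.01, 73 ± 9.94 and 90.6 ± 8.01, higher in dKO-E. *Elf1*, which encodes an ETS transcription factor, had 37.7 ± 3.93, 47.1 ± 10.6 and 61.3 ± 8.1, and *Spopl* had 106 ± 3.66, 128 ± 4.09 and 135 ± 10.7 CPM. Among the 6 themselves *Impg2* and *Cdkl3* were closest (r = 0.847), followed by *Zc3h6* and *Ppp4r1l-ps* (0.842), and *Impg2* and *Irak1* were farthest apart (0.401). These r also restate in part the choice of the genes by genotype.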

How the data were processed

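RNA of E13.5 neocortex was measured in 19 embryos, grouped by the genotype in the labels. The authors depleted ribosomal RNA, prepared Click-seq libraries with molecular identifiers, trimmed reads with cutadapt 1.13, aligned them to mm10 with STAR 2.5.2a, removed duplicates with UMI-tools 0.5.3 and counted reads per gene with HTSeq 0.6.1p1, per the submitters' processing notes. The values they deposited are raw counts per gene, without normalization, and whether counting used strand is not given in the sources used here. Between 23.3% and 31.8% of the reads in the tables were assigned to no gene, and these summary lines were left out.

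Of 51912 identifiers, 51633 were matched without version to GENCODE M21 (GRCm38) for symbols and positions, and 47648 carried the same version. Each comparison was fitted with edgeR 4.0.16 in R 4.3.3, without covariates, after filterByExpr at a minimum count of 10, with TMM factors, the quasi-likelihood test and Benjamini-Hochberg adjustment over all genes tested. The threshold was 0.001 against ctrl and 0.05 elsewhere, and the SE is the log2 fold change divided by the square root of F. CPM used TMM factors over 19 libraries and the genes past the filter, and log2 CPM a prior count of 2. Correlations were tested with 100000 permutations in Python 3.11.15 with numpy 2.4.6 and scipy 1.17.1, and plots were made with matplotlib 3.10.9.

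The members, lists and tests were chosen with earlier results of these data known. The genes named are the 6 members, *Ino80* and *Trp53*, called genes of the pathway lists with up to 2 abundant ones not called, called and nearest genes within 200 kb, the 3 genes most like each member, and called marker genes. Not every gene under this rule is described. *Impg1*, *Rbp3*, *Myd88*, *Irak4*, *Sox2*, *Tubb3*, the epithelial markers and *Gm10762* were named after their values were seen. The tests were tried on simulated counts with known changes. Each library was 1 embryo and some embryos of a group shared a litter, so p-values measure the spread between these embryos. Libraries of the same group differed beyond sampling noise. Letters shared between groups did not pair the embryos, since 4 of 14 same-lettered pairs had a correlation of deviations over 0.1. The labels name litters, of which ctrl and each mutant share some, and 7 of 11 littermate pairs had a correlation over 0.1. Floors of 3 counts cover counting error only. DESeq2 1.42.0, limma 3.58.1 and the other alternatives are treated in the closing section.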

Additional observations from a re-analysis of the deposited data

Results flagged for a closer look

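*Impg2* in cKO-E A, at 34.9 CPM, stood apart from the other 4 cKO-E embryos by 0.733 of the group's range, above the limit of 0.71 for 5 values. It was 1 of 18 groups of embryos examined, and chance flags about 1 in 20 such groups. Without this embryo the log2 fold change of *Impg2* in cKO-E was 0.75 in place of 0.99, and the gene was no longer called at 0.001.

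The difference of dKO-E from cKO-E was larger than for the other members in 3 of the 6 genes, with 0.89 on the log2 scale for *Muc1* (SE 0.21), 0.55 for *Irak1* (SE 0.13) and 0.23 for *Ppp4r1l-ps* (SE 0.07). The same embryos entered the choice of the genes, which admitted some for their values in dKO-E alone, so these differences restate the choice in part and carry no test. The mutants shared no litter. All 7 dKO-E embryos were above every cKO-E embryo for *Irak1* and *Ppp4r1l-ps*, and 4 of 7 for *Muc1*.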

How the results depend on the processing

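The number of the 6 genes called higher in cKO-E at 0.001, 2 as reported, was 1 with sex as a covariate, 1 in 1 fit over all 19 libraries and 0 in each of litter as a block, letter as replicate block, batch 1 only and females only. It was 4 at a rate of 0.01 or 0.05, and 0 to 2 with 1 embryo left out, being 0 without cKO-E A, C or E and 1 without ctrl A, B, D, F or I or cKO-E D. In dKO-E, 5 as reported, it was 0 with the litter block, the letter replicate block, batch 1 only and females only, and 4 to 6 with 1 embryo left out. Of genes different between the mutants, 3 as reported, 1 was left in females only, 0 at a rate of 0.001, and 2 to 3 with 1 embryo left out. No paired analysis was possible between the mutants by litter because they share none.

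Pathway list genes called in cKO-E, 3 as reported, were 1 in females only, 8 at 0.05 and 2 to 3 with 1 embryo left out. In dKO-E, 2 as reported, they were 0 with the litter block, the letter replicate block, batch 1 only and females only, 5 at 0.05 and 2 with any 1 embryo left out. Neighbours called in cKO-E, 0 as reported, were 1 by DESeq2, 3 at 0.01 and 4 at 0.05. In dKO-E, also 0, they were 1 by DESeq2, 1 by the likelihood-ratio test, 1 with total counts in place of TMM, 2 at 0.01, 6 at 0.05, and 0 to 1 with 1 embryo left out, being 1 without ctrl H. Of the 15 correlated pairs, 0 as reported, 1 passed with genotype and batch means removed. The causes were not tested, except that subsets hold fewer embryos. In the alternative fits here and below the share of all genes called was not counted. The numbers therefore do not show whether other genes lost their calls as well.

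Alternatives chosen after seeing the data were batch 2 only, males only and the deeper libraries. With batch 2 only, 0 members were called in cKO-E, 0 in dKO-E and 0 between the mutants, and 0 and 0 pathway genes. With males only these were 0, 2 and 1 members and 0 and 1 pathway genes, and with the deeper libraries 1 member in cKO-E. In sex and batch among ctrl, 0 members were called throughout.

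No log2 fold change called as higher changed its sign. Of 168 alternative values in cKO-E 166 moved by less than 1 SD between embryos, as did 174 of 180 in dKO-E, all of them above 0, and 157 of 162 between the mutants. The values that moved in cKO-E were those of males only, 0.38 for *Zc3h6* and -1.28 for *Muc1*, with 1 male cKO-E embryo, C. Low counts limit *Irak1*, *Impg2* and *Muc1* most, whose lowest counts in cKO-E were 14, 16 and 20.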
